A study of Dunaliella salina with 18 samples.

Results

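In the halotolerant green alga Dunaliella salina, 26 of 43236 assembled transcripts formed a late rise in the H2L arm of a reciprocal salinity shift. They stayed level between 0h and 4h, were at least 2 times higher at 24h, and kept more than 0.5 times their L2H 0h level at L2H 24h. In 7 of the 26 the L2H 24h mean was below that of L2H 0h. The members were chosen from the measured values, so their behaviour in the H2L arm is a description and carries no test. Each group mean over 3 libraries was taken plus 1. A member needed an H2L 24h value of at least 11, at least 2 times both H2L 0h and H2L 4h, with H2L 4h between 0.67 and 1.5 times H2L 0h. The ratio of L2H 24h to L2H 0h had to exceed 0.5, and transcripts with a mean over the 18 libraries of at least 1000 were left out.

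Total RNA of cultured cells of strain CCAP 19/3 was sequenced in 18 libraries, 3 for each of H2L 0h, H2L 4h, H2L 24h, L2H 0h, L2H 4h and L2H 24h. The sample titles name the arms H2L and L2H, while the condition field calls the H2L samples low-salt to high-salt and the L2H samples high-salt to low-salt. The 2 labels disagree, so the arms keep their titles here and neither is given a direction of salinity change. The labels give no salt concentrations and do not say how cultures were divided, so each p-value reflects only how these libraries vary among themselves, and that variation may be technical. In bulk RNA a change in the number of cells that hold a transcript and a change in its amount per cell cannot be told apart.

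Dunaliella has no rigid cell wall, and its cells swell or shrink at once when the salinity of the medium changes. They then restore their volume by moving ions and by making or breaking down glycerol, which serves as the main compatible solute. Changes in gene expression accompany this adjustment and the longer acclimation of photosynthesis, carbon storage and carotenoid formation. The transcripts are known only by assembly identifiers, 0 of which appeared among the genes of the reference, so no role can be given to any member and no sequence is shown. At most a few identifiers are therefore named per comparison.

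The deposited values are RSEM abundances whose exact scale is not stated; they were taken as scaled for length and depth, and levels of different transcripts rest on that. Library totals were 749880 to 842410 units. The read depth is unknown. Libraries 1 and 2 of each group were more alike than either was to library 3, with Pearson's r across transcripts of 0.963 to 0.969 against 0.945 to 0.962, a description over transcripts that are not independent. Libraries 1 and 2 carry the same title tags in both arms, and library 3 has a tag of its own in each arm. Every tag also changes from 4h to 24h, so time and tag cannot be told apart in any comparison that involves 24h.

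The conditions of the rule narrowed the table in steps. A mean of at least 10 at H2L 24h held for 10381 transcripts, of which 167 were at least 2 times H2L 0h and 72 were also at least 2 times H2L 4h. The steady level from 0h to 4h left 49. The L2H condition then left 27, and the limit on abundance left 26. Late H2L risers that fell in the L2H arm were thus nearly as many as the members, at 22 transcripts. The thresholds cut through a continuous range: the smallest member ratio of H2L 24h to the higher of 0h and 4h was 2.01 and the largest ratio just outside was 1.99. Among transcripts meeting the other conditions, 12 members lay between 2 and 2.2 and 22 other transcripts between 1.8 and 2. The lowest member mean at H2L 24h was 10.3 and the nearest below the floor was 9.67. The lowest ratio of L2H 24h to 0h among members was 0.521, and the nearest transcript left out had 0.467.

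Most members were of low abundance. At H2L 24h 15 had a mean under 25, 7 had 25 to 100 and 4 had at least 100. The median member stood at 7.27 units at H2L 0h, 8.03 at H2L 4h and 20.7 at H2L 24h. In the L2H arm it stood at 9.98 at 0h, 7.74 at 4h and 12.5 at 24h. The ratio of H2L 24h to 0h ran from 2.01 to 4.24 with a median of 2.49, so these were moderate rises. The group with the highest mean was H2L 24h for 19 members, L2H 24h for 4 and L2H 0h for 3. The rule did not require an absence of a rise in the L2H arm, so members need not rise in H2L alone. In 4 of 26 the L2H 24h level was also at least 2 times that of L2H 0h. The share over the 10381 transcripts at the same level in H2L 24h was 0.896%. The L2H 24h mean was above that of L2H 0h in 19 members and below it in 7, where 64.5% of those transcripts were above. The median ratio of L2H 24h to 0h was 1.39 in the members and 1.08 in those transcripts. The lower bound that the rule set on this ratio left out its lowest values, so nothing is read from these differences.

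**Figure D1:**
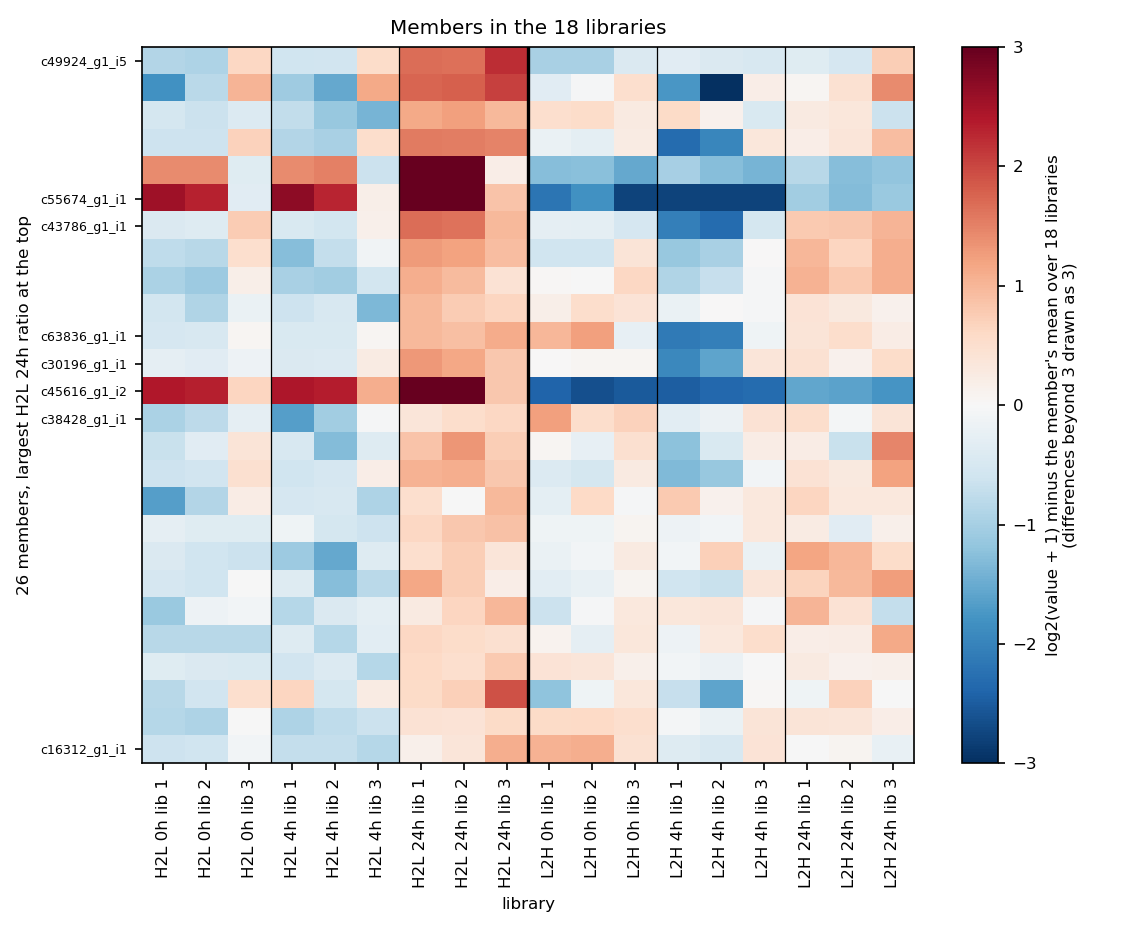
Each row is a member and each column a library; colour gives log2(value + 1) minus the member's mean over the 18 libraries, with the named members marked at the left. The 3 columns of H2L 24h are red for nearly all rows, and columns of L2H 4h libraries 1 and 2 are blue for many rows where library 3 is not. In 3 rows H2L libraries 1 and 2 are red at every time while library 3 is pale.

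The largest rise among members with a mean of at least 50 at H2L 24h and no overlap within the arm was that of c49924_g1_i5. It read 25.2, 24.6 and 72.7 units in H2L 0h libraries 1, 2 and 3, then 30.9, 31.6 and 69.7 at 4h and 153, 152 and 224 at 24h. In the L2H arm it read 23.7, 23.7 and 34.9 at 0h, 37.3, 34.6 and 33.7 at 4h and 36.4, 32.9 and 78.9 at 24h. Every H2L 24h library lay above every other library of the series, and library 3 was the highest in all 3 H2L groups. Its mean at H2L 24h was 176 ± 41.3 (SD, n = 3), against 49.4 ± 25.6 at L2H 24h.

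The most abundant members were c30196_g1_i1 and c63836_g1_i1. The transcript c30196_g1_i1 read 603, 574 and 648 at H2L 0h, 539.6, 548 and 857 at 4h and 1778, 1619 and 1266 at 24h, so that all libraries at 24h lay above the earlier ones. Its L2H libraries read 728, 756 and 750.3 at 0h, 189, 242 and 930.1 at 4h and 1002, 788 and 1061 at 24h. At L2H 4h libraries 1 and 2 were low and library 3 was not. The transcript c63836_g1_i1 read 279.9, 289 and 415 at H2L 0h, 294, 289.7 and 418 at 4h and 783, 755 and 872 at 24h. In the L2H arm it read 794, 935 and 338 at 0h, 90.9, 96.2 and 365 at 4h and 520.5, 574 and 471 at 24h. The start of the L2H arm was thus as high as the end of the H2L arm in libraries 1 and 2, but not in library 3.

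**Figure D2:**
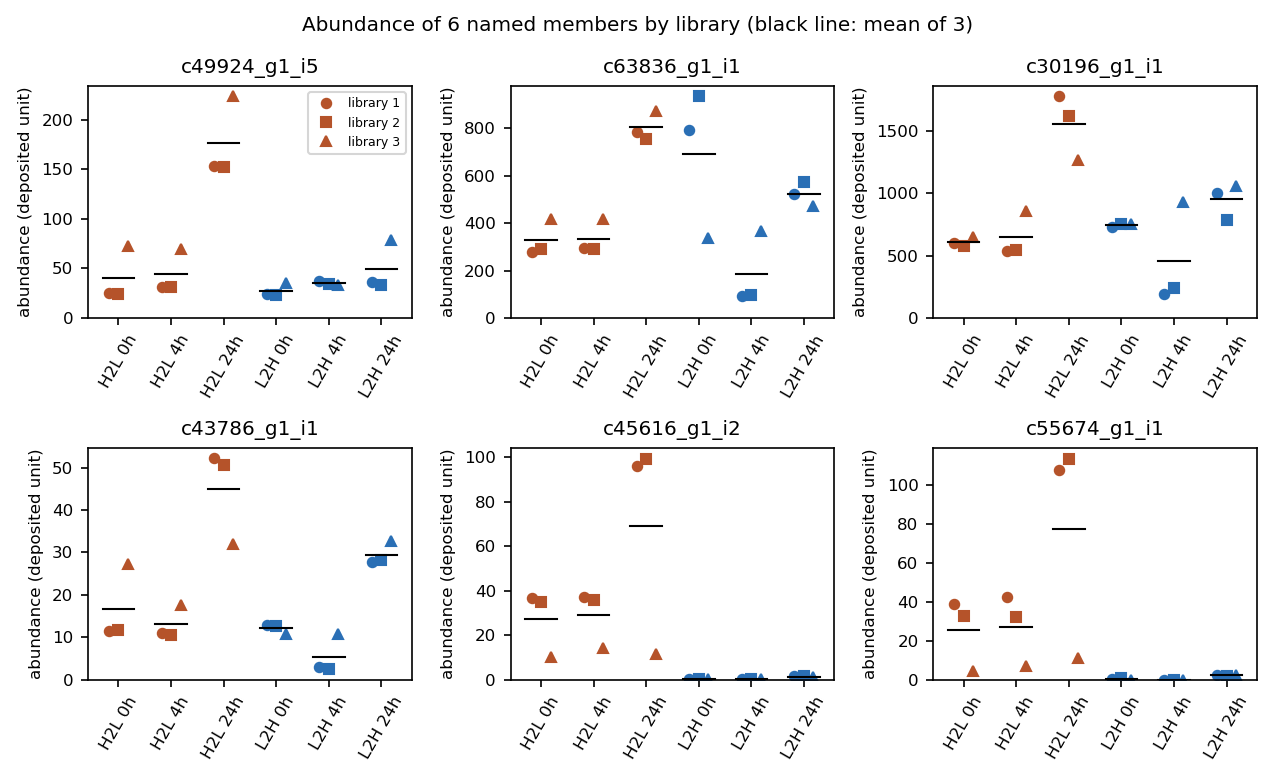
Abundance in the deposited unit on the vertical axis against the 6 groups, with H2L in brown and L2H in blue, symbols for library numbers and a black line at the mean of 3 libraries. The H2L 24h points of c49924_g1_i5 lie between 152 and 224, while for c45616_g1_i2 and c55674_g1_i1 library 3 lies far below libraries 1 and 2 at H2L 24h.

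Limma called 17 of the 26 members higher at H2L 24h than at 0h at an adjusted p under 0.05, where 2.56% of the 34166 transcripts tested were called higher. Against 4h it called 21 of 26, where 5.74% were called higher. The rule used both comparisons, so nothing is read from these counts. All 26 members passed the filter of the test, which required 3 or more libraries to reach 1 unit. The count against 0h was 9 without H2L 24h library 1 or 2, where 335 and 326 transcripts were called higher over all tested. It was 7 without H2L 0h library 1 or 2, where 250 and 190 were. The 3 libraries at H2L 24h lay above all 6 earlier H2L libraries in 21 members, where this held for 7.95% of the transcripts at that level.

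The comparison of L2H 24h with L2H 4h was not part of the rule. Limma called 6 of the 26 members higher at 24h and 0 lower (11 at an unadjusted p under 0.05; limma was the only tool run), where 1.88% of all transcripts tested and 3.64% of those at the level of the members were called higher. The median log2 change of the members was 0.74, against 0.03 over all tested transcripts and 0.06 over those at their level. The change was above 0 in 24 of 26 members, against 59% of transcripts at their level. In 10 members the L2H 24h mean plus 1 was at least 2 times that of L2H 4h, where the background was 1.85%. In 10 members the 3 libraries at 24h lay above the 3 at 4h, where the background was 16.5%. The lower bound that the rule set on L2H 24h against 0h favours high values at L2H 24h: the 22 transcripts which that bound removed had a median ratio of L2H 24h to 4h of 0.649, against 1.65 in the members. The L2H counts and median therefore cannot be told apart from the choice of members. The count of 6 was 0 when libraries 1 and 2 entered as their mean (7 at an unadjusted p under 0.05 by limma). In that fit 1 of all 30804 transcripts tested was called higher. The count was 1 without L2H 4h library 1 or 2, where 88 and 108 transcripts were called higher over all tested. It was also 1 without L2H 24h library 1 or 2, where 169 and 147 were. Without L2H 24h library 3 it was 2, where 464 were, and without L2H 4h library 3 it was 9, where 1251 were.

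The largest of these L2H rises that met the naming rule was that of c43786_g1_i1. It read 12.9, 12.7 and 10.7 at L2H 0h, 3.01, 2.38 and 10.6 at 4h and 27.6, 28.1 and 32.6 at 24h. In the H2L arm it read 11.4, 11.7 and 27.2 at 0h, 11.1, 10.4 and 17.5 at 4h and 52.3, 50.7 and 31.9 at 24h. The libraries at 24h lay above all earlier ones in both arms. The log2 change from L2H 4h to 24h was 2.49 (SE 0.38, limma adjusted p = 0.00357), and it kept a limma adjusted p of at most 0.0346 without any 1 of the 6 libraries compared. With the mean of libraries 1 and 2 in place of both, the log2 change was 2.25 and the call was lost (limma adjusted p = 0.313). For c63836_g1_i1 the log2 change was 1.81 (SE 0.42, limma adjusted p = 0.0297), a call that was lost without L2H 4h library 1 or 2 (limma adjusted p = 0.181 and 0.163). The call was also lost when L2H 24h library 1, 2 or 3 was left out (limma adjusted p = 0.0949, 0.109 and 0.0579). The other 4 called members had log2 changes of 1.27 to 1.62. For c30196_g1_i1 it was 1.43 with limma adjusted p = 0.0627, so that transcript was not called.

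**Figure D3:**
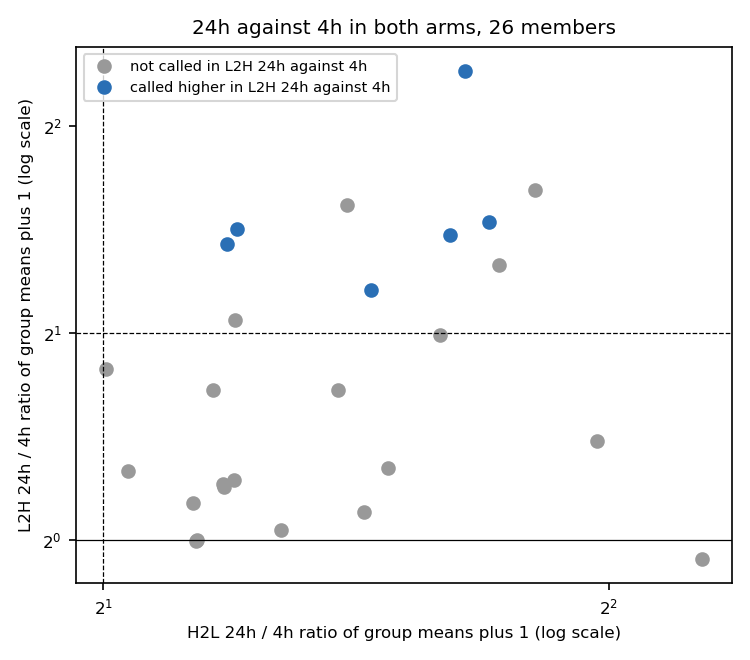
Ratio of 24h to 4h, as group means plus 1 on log scales, in the H2L arm (horizontal axis) and the L2H arm (vertical axis) for the 26 members; blue points were called higher in L2H by limma. All points lie right of 2 by the rule, and 10 lie above 2 on the vertical axis, while 3 lie below 1.

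At 4h the members tended to be lower than at 0h in the L2H arm, though few changes were called. The rule used L2H 0h in its bound on L2H 24h against 0h, so this comparison is not free of the choice of members. The 22 transcripts which that bound removed had a median ratio of L2H 4h to 0h of 0.359, against 0.738 in the members. In 18 of 26 members the log2 change was at or below 0, and 8 were above 0 where 54.4% of transcripts at their level were. The median log2 change was -0.44, against -0.0028 over all tested transcripts and 0.04 at their level. Limma called 1 member lower and 0 higher (9 at an unadjusted p under 0.05), where 1.07% of all tested and 2.48% at the level of the members were called lower. In 3 members L2H 4h was at most 0.5 times L2H 0h, where the background was 2.2%. The 3 libraries at 4h lay below the 3 at 0h in 7 members, where the background was 10.6%. The mean at L2H 4h was below both L2H 0h and L2H 24h in 17 members, against 36.1% at their level. The called member was c63836_g1_i1, named here after its values were seen, with a log2 change of -2.09 (SE 0.42, limma adjusted p = 0.0384) although its libraries overlapped. That call was lost without library 1 or 2 of either group (limma adjusted p = 0.19 to 0.245). The count of members called was then 0 (4 to 9 at an unadjusted p under 0.05), and so was the count over all transcripts tested. Without L2H 4h library 3 it was 6 members, where 1369 of 33959 transcripts were called lower. Without L2H 0h library 3 it was 3 members, where 1484 of 33907 transcripts were called lower.

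The dip at L2H 4h was larger in libraries 1 and 2 than in library 3, a difference between library numbers whose part in the results was not tested. The summed level of the 26 members, most of it from the 2 most abundant, was 1856, 2029 and 1448 units at L2H 0h, 531, 580.1 and 1622 at 4h and 1929, 1741 and 2003 at 24h in libraries 1, 2 and 3. The ratios given next compare different libraries that carry the same number. These were not taken as pairs, so the ratios only describe how the library numbers differ. For number 1, 19 of 26 members were lower at 4h than at 0h with a median ratio of 0.699, and 8 were at most 0.5. For number 2, 20 were lower with a median ratio of 0.69, and 7 were at most 0.5. For number 3, 16 were lower, but the median ratio was 0.949 and 0 were at most 0.5. The transcripts at the level of the members had median ratios of 1.06, 1.05 and 0.975 in libraries 1, 2 and 3. Of these transcripts 43.3%, 45.2% and 56.9% were lower at 4h, so the member count in library 3 was near that share. From 4h to 24h the direction was shared: the median ratio of the members was 1.84, 1.48 and 1.37 in libraries 1, 2 and 3, and 23, 21 and 19 members were higher at 24h. At their level the median ratios were 1.05, 1.05 and 1.03, and 56.7%, 57.8% and 56.2% of transcripts were higher. The split was wide in c63836_g1_i1, with ratios of 4h to 0h of 0.116, 0.104 and 1.08 in libraries 1, 2 and 3. It was also seen in c45347_g2_i1 and c45347_g1_i1, which share an assembly component, may share reads and are named after their values were seen. The first read 7.38, 9.21 and 13.9 at L2H 0h and 2.12, 0.29 and 11.2 at 4h. The second read 11.6, 10.8 and 16.1 at L2H 0h and 1.91, 2.72 and 17.1 at 4h. Neither change was called by limma (adjusted p = 0.302 and 0.237).

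**Figure D4:**
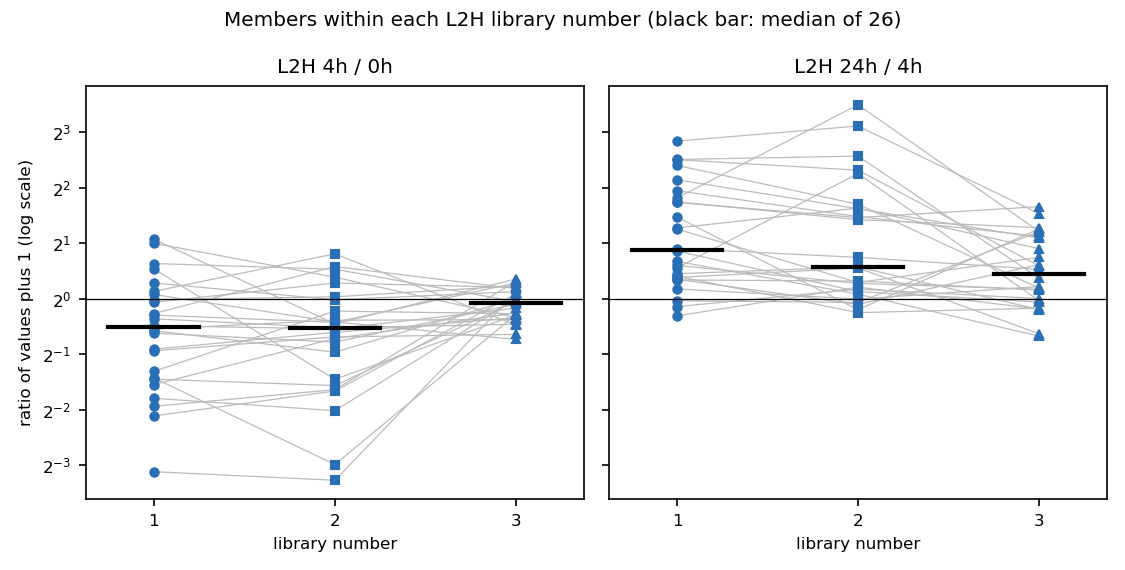
Ratio of values plus 1 on a log scale for each of the 26 members, taken between L2H libraries of the same number (1, 2 or 3). The libraries were not taken as pairs. Grey lines join the values of a member and black bars are medians. Medians for 4h against 0h are 0.699, 0.69 and 0.949, and those for 24h against 4h are 1.84, 1.48 and 1.37.

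The arms were set side by side at their start and at 24h as a description, since the rule used H2L 0h and H2L 24h. At 0h 3 members were at least 2 times higher in H2L and 4 were at most 0.5 times L2H, where the background was 1.52% on each side. At 24h 6 members were at least 2 times higher in H2L than in L2H, where the background was 1.72%, and 4 were lower in H2L than in L2H. Against the start of the L2H arm, H2L 24h was at least 2 times higher in 11 members, where the background was 1.33%, and within 0.67 to 1.5 times in 9.

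The transcripts highest in H2L relative to L2H at 0h were c45616_g1_i2 and c55674_g1_i1. The transcript c45616_g1_i2 read 36.9, 35.0 and 10.2 at H2L 0h, 37.3, 36.0 and 14.2 at 4h and 96.1, 99.5 and 11.5 at 24h. In the 9 L2H libraries it stayed between 0.16 and 1.43. The transcript c55674_g1_i1 read 38.8, 32.5 and 4.38 at H2L 0h, 42.7, 32.0 and 6.72 at 4h and 108, 114 and 11.3 at 24h. It was listed at 0 in all 3 L2H 4h libraries and reached at most 2.32 in L2H. A further member of this kind, c43563_g2_i2, named after its values were seen, read 53.4, 53.4 and 14.9 at H2L 0h and 169, 166 and 22.5 at 24h, against 6.1 to 10.6 across L2H. In all 3 transcripts libraries 1 and 2 of the H2L arm averaged 2.48 to 9.13 times library 3 at each time, and H2L 24h overlapped the earlier libraries. Their rise within library 3 was smaller or absent, and limma called none of the 3 in either H2L comparison (adjusted p = 0.196 to 0.406).

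The transcripts lowest in H2L relative to L2H at 0h were c38428_g1_i1 and c16312_g1_i1. The transcript c38428_g1_i1 read 5.7, 6.57 and 9.81 at H2L 0h and 15.7, 17.7 and 19.1 at 24h, and its L2H libraries read 29.5, 17.9 and 20.1 at 0h and 17.9, 11.5 and 15.9 at 24h. The transcript c16312_g1_i1 read 5.81, 5.96 and 8.93 at H2L 0h and 10.7, 12.4 and 21.5 at 24h, and its L2H libraries read 20.8, 21.3 and 13.5 at 0h and 9.4, 10.1 and 8.05 at 24h. In both, the 3 L2H 0h libraries lay above the 3 H2L 0h libraries, and at 24h the arms overlapped in c38428_g1_i1, while every H2L library of c16312_g1_i1 lay above every L2H library.

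The rule was then applied to 2 of the 3 library numbers in every group, and the rise was read in the H2L libraries of the number left out, which had no part in the choice. From libraries 1 and 2 the rule chose 71 transcripts, 21 of them members. In library 3 5 of these were at least 2 times higher at 24h than at both 0h and 4h, which is 7.04%, where 0.629% of transcripts at that level were. In 48 of 71 library 3 was at least higher at 24h than at both earlier times, where 30.4% were. Without library 1 the rule chose 27 transcripts, of which 13 (48.1%) were at least 2 times higher in library 1, where 1.12% were, and 25 were higher than at both times, where 32.6% were. Without library 2 it chose 29, of which 15 (51.7%) were at least 2 times higher in library 2, where 1.27% were, and 27 were higher than at both times, where 31.6% were. The direction was thus shared by most chosen transcripts in each left-out library, and the size was carried over between libraries 1 and 2 more often than to library 3. Libraries 1 and 2 were more alike than either was to library 3, so leaving out library 1 or 2 kept its closest library in the choice. The shares of 48.1% and 51.7% are therefore no independent check. Only the 7.04% in library 3 was read in a library less like those used for the choice. There is 1 left-out library per group, so no test was made.

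**Figure D5:**
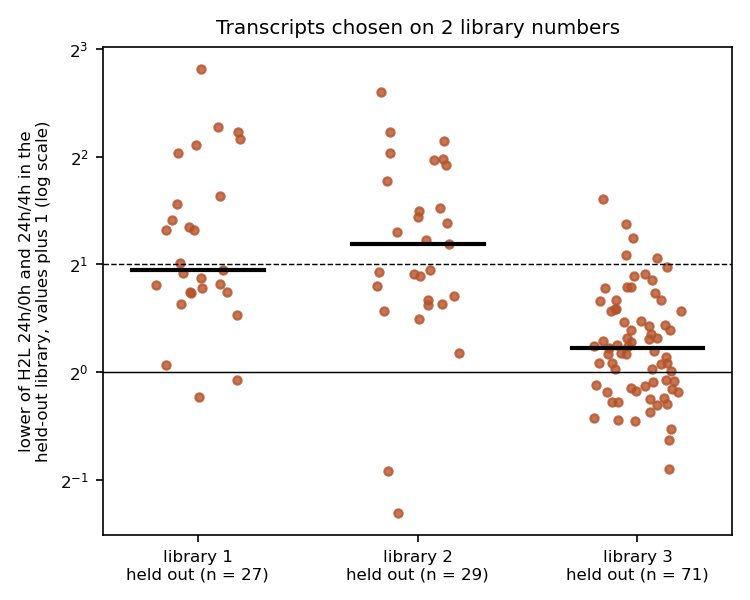
Lower of the ratios H2L 24h/0h and H2L 24h/4h in the left-out library, values plus 1 on a log scale, for transcripts chosen on the other 2 library numbers; black bars are medians and the dashed line marks 2. Of the points, 13 of 27, 15 of 29 and 5 of 71 reach 2 for libraries 1, 2 and 3.

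Over all 3 libraries the members spread more before the rise, when their level was lower, than after it. The coefficient of variation over 3 libraries had a median of 43.9% at H2L 0h, 39.3% at H2L 4h and 15.5% at H2L 24h. Over libraries 1 and 2 alone the medians were 5.56%, 8.4% and 4.49%. Library 3 was the highest of the 3 libraries in 19 members at H2L 0h, in 15 at 4h and in 11 at 24h. It was the lowest in 6, 9 and 15 members at these times. The ratio of H2L 24h to 0h between libraries of the same number, not taken as pairs, had a median of 2.88 for library 1, 2.81 for library 2 and 1.91 for library 3. At least 2-fold was reached by 22, 22 and 12 members. These values depend on the choice of members and are given as a description. The spread and the rank of library 3 were not taken for other transcripts at these levels, so neither is read as particular to the members.

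The identifiers show few links among members. The 26 transcripts come from 24 assembly components, and 2 components hold 2 members each. In 12 components another 40 transcripts were assembled, of which 1 was at least 2 times higher at H2L 24h than at both earlier times and 20 had an H2L 24h mean of at least 10. The median ratio of H2L 24h to the higher earlier mean was 1.07 over these 40. The transcripts outside the set with the most similar pattern over the 6 group means were c47832_g1_i2 (Pearson's r = 0.993 with the median member on the log2 scale) and c9216_g1_i1 (r = 0.992), chosen from all tested transcripts over 6 points that share libraries with the members. Their rises were smaller, at 1.2 and 1.68 times from H2L 0h to 24h, and in both the H2L 24h libraries overlapped those of H2L 0h. The group means of c47832_g1_i2 were only 2.74 to 3.7 units.

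The late H2L risers that fell in the L2H arm are set beside the members as a description. The condition that separated them favours a high L2H 0h and a low L2H 24h in the excluded transcripts. It thereby also favours a low ratio of H2L 0h to L2H 0h, so these values are not read as further differences. The 22 excluded transcripts had a median of 76.1 units at L2H 0h, 19.5 at L2H 4h and 8.86 at L2H 24h, where the members had 9.98, 7.74 and 12.5. At 0h H2L was at most 0.5 times L2H in 20 of the 22 excluded transcripts and in 4 of the 26 members. The median ratio of H2L 24h to 0h was 3.83 in the excluded transcripts, with a highest value of 52.5, against 2.49 and 4.24 in the members. The same rule with the arms exchanged chose 52 transcripts. These sets were defined by values of the same libraries, and the differences were not tested.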

How the data were processed

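RNA was sequenced from 18 libraries in 6 groups of 3. FastQC, Bowtie2 and RSEM are named, per the submitters' processing notes, without versions. The authors deposited 1 table, whose unit is a signal that appears to be scaled by transcript length and library depth, from its decimals, its similar totals and the use of RSEM. Its exact scale is not stated, and since it holds no counts, tests were made on a log scale. Of 31899 rows whose highest value was at most 6 times the lowest value above 0, 9.45% had every value within 0.2 of a whole multiple of that lowest value. These rows had no upper limit on abundance, and a lowest value of many reads gives no whole multiples. This check therefore cannot decide whether the values come in steps of reads. Reads were not recovered, depth is unknown and no counting intervals are given. Columns were matched to samples by title, and 0 columns belonged to no sample.

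The members and all lists were chosen with earlier results of these data known. Ratios used group means plus 1. For tests, limma 3.58.1 in R 4.3.3 fitted log2(value + 1) with 1 mean per group over all 18 libraries and a trend in the prior variance, on the 34166 transcripts (79.0%) that reached 1 unit in 3 or more libraries. All p-values are two-sided, with Benjamini-Hochberg adjustment over these transcripts. With the pseudocount a log2 change understates changes of low transcripts. The fit was run on simulated data with independent libraries, a setting that leaves out the likeness of libraries 1 and 2. Libraries 1 and 2 were kept as separate samples.

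Named transcripts were the 2 members with the largest H2L ratio (mean of at least 50, no overlap), the 2 most abundant at H2L 24h, the 2 largest called rises and falls in each L2H comparison (mean of at least 10, no overlap), the 2 extremes of H2L to L2H at 0h on each side, and the 2 nearest patterns outside the set. No called fall met this rule. Alternatives were other pseudocounts, filters, scalings, thresholds and samples, single libraries left out, libraries 1 and 2 averaged, and a replicate block.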

Additional observations from a re-analysis of the deposited data

How the results depend on the processing

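The number of members depends on each threshold, and in all alternatives not named here it stayed within 1.5 times 26. It was 11 with an offset of 5, 46 with medians, 3 at a fold of 3, 189 at a fold of 1.5, 50 with a floor of 5, 14 with a floor of 20, 14 with L2H 24h/0h held between 0.67 and 1.5, and 71 from libraries 1 and 2 alone, of which 21 were members. Leaving out 1 library gave 20 to 61: it was 61 without H2L 0h library 3, with 22 of the members, and 44 without H2L 24h library 3, with 20. Of members called at L2H 4h against 0h, 2 were called with a pseudocount of 5, 4 with values of at least 10 required and 2 after quantile normalization. Over all transcripts tested, 384, 657 and 400 were called lower in these settings. Limma called 0 when libraries 1 and 2 entered as their mean, with only the groups compared (24 members tested), no trend or an adjusted p under 0.01 (1, 8, 9 and 9 at an unadjusted p under 0.05), and 0 to 6 with 1 library left out. Over all transcripts tested it then called 0, 0, 1 and 0 in either direction, and 0 to 1484 lower with 1 library left out. At L2H 24h against 4h it called 2 members after upper-quartile scaling, 0 with the mean of libraries 1 and 2 (7 at an unadjusted p under 0.05), 3 with only the groups compared, 2 with no trend, 1 under 0.01, and 1 to 9 with 1 library left out. For that comparison 383, 1, 202, 458 and 103 transcripts were called higher over all tested, and 88 to 1251 with 1 library left out. The median log2 change there was 0.42 with a pseudocount of 5 and 0.56 to 0.69 with 1 library left out, and that at 4h against 0h was -0.59 to -0.37. At H2L 24h against 0h limma called 0 members with the mean of libraries 1 and 2 (19 at an unadjusted p under 0.05). It called 7 under 0.01 and 7 to 19 with 1 library left out. Over all transcripts tested 2, 151 and 190 to 1210 were called higher in these settings. Against 4h it called 5 members with that mean and 14 to 19 with 1 left out, where 371 and 1219 to 1653 transcripts were called higher. The share of left-out ratios reaching 2 was 7.04% in library 3, 48.1% in library 1 and 51.7% in library 2. The causes were not tested. The library numbers were not taken to pair the samples, since same-number deviations did not all correlate above 0.1. Their r was -0.18 to -0.04 between L2H 0h and 4h, 0.05 to 0.06 between L2H 0h and 24h, and 0.06 to 0.15 between L2H 4h and 24h. Different-number r was -0.1 to 0.12, -0.06 to 0.02 and -0.12 to 0.05 in these comparisons. In the H2L arm same-number r was 0.07 to 0.26 and different-number r was -0.17 to 0.1. For H2L library 3 same-number r was 0.23 to 0.26, so deviations were partly shared by number there. With the replicate block c63836_g1_i1 had limma adjusted p = 0.0522 at L2H 4h against 0h and 0.0521 at 24h against 4h. In that fit limma called 0 members at L2H 4h against 0h (12 at an unadjusted p under 0.05), 8 at L2H 24h against 4h, 22 at H2L 24h against 0h and 24 at H2L 24h against 4h. Over all transcripts tested it called 0 at the first comparison and 792, 1160 and 2275 higher at the others. The read depth is unknown and limits the members of low abundance.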
